A study of Homo sapiens with 8 samples.

Results

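MYC and the other genes of its MAX network were followed through nonsense-mediated mRNA decay (NMD) inhibition and transcription arrest in 2 prostate cancer cell lines, on 8 Affymetrix Human Genome U133 Plus 2.0 arrays. The genes were MYC, MYCN, MYCL, MAX, MXD1, MXD3, MXD4, MXI1, MNT and MLX, taken by name, with every probe set that the annotation of the array assigns to that symbol alone. This gave 31 probe sets of 9 of the 10 genes, among 41097 probe sets of 19775 genes. All 3 probe sets of MXD4 carry a further symbol, and MXD4 was not analysed here. LNCaP, derived from a lymph node metastasis, and 22Rv1, derived from a prostate cancer xenograft, are established androgen receptor positive lines. In each line 1 plate was untreated and 1 was held for 4 hours in 10 mM caffeine, which was added to block NMD. A further pair had the same caffeine step and then another 4 hours in 2 μg/ml actinomycin D, an inhibitor of transcription, either together with 10 mM caffeine or alone. The study used this second step to tell mRNAs that are kept when NMD is blocked from mRNAs whose transcription rose. Each line and treatment has 1 array, so no difference within a line has a replicate check. Each array measured the RNA of a whole plate, so fewer cells carrying a transcript and less of it per cell cannot be told apart.

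The proteins of the network share a basic helix-loop-helix leucine zipper and bind the E-box in gene promoters as pairs. MAX is the common partner: MYC, MYCN and MYCL pair with it to activate genes of growth, ribosome production and the cell cycle, whereas MXD1, MXD3, MXD4, MXI1 and MNT pair with it to recruit SIN3 and histone deacetylases and repress them. MLX pairs with MXD1, MXD4 and MNT and with the glucose-sensing factors MLXIP and MLXIPL. MYC mRNA is among the shortest-lived mRNAs of human cells, and MYC is frequently gained or overexpressed in prostate cancer.

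Several genes of the network are known to carry E-boxes near their starts, so the bases before the annotated start sites were searched for CACGTG, which reads the same on both strands. RefSeq windows on GRCh38.p14 were searched for 9 of the 10 genes, 12 windows of 250 bases in all. MYC was left out by a filter on its chromosome, so its promoter was not searched here. The E-box was in 3 of the 12 windows, those of MNT, MLX and MXD4. It was in 6.34% of the 35116 promoter windows of the same length, a share taken without that filter. The MNT window lies at chr17:2401061-2401310 on the minus strand, with the E-box beginning 193 bases before the start site. The MLX window lies at chr17:42566850-42567099 on the plus strand, with the E-box beginning 50 bases before the start site. MXD1, at chr2:69914859-69915108 on the plus strand, is shown beside them because MXD1 and MNT are the repressors with the largest differences after caffeine, and its window holds no CACGTG. The windows are given from the 5′ end with the E-box in capitals, and a match is a description of the letters and not a measured binding site.
MNT: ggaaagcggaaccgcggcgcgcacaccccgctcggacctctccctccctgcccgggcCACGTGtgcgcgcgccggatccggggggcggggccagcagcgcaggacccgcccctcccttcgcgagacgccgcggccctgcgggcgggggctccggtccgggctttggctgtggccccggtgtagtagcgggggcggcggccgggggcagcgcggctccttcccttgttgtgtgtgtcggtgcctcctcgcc
MLX: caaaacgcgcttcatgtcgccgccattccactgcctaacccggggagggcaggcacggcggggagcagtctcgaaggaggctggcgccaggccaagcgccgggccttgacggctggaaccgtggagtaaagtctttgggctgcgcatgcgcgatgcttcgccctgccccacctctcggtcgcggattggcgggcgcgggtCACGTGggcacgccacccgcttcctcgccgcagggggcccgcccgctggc
MXD1: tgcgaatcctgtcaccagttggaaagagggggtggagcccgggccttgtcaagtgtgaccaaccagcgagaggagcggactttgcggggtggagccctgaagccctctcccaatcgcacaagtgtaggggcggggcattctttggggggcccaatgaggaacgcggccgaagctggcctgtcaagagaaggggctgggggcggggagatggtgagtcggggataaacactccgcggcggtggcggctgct

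Signals are on the log2 scale, as gcRMA values with background correction and quantile normalization by the authors, so every array has the same median of 2.75. A signal of 4 was taken as the floor of detection. Of the 31 probe sets 16 reached it on at least 1 array, and 14 probe sets of 7 genes had a mean of 4 or more over the 8 arrays and entered the test. Accumulation is the caffeine signal minus the untreated signal, and degradation is the signal under actinomycin D when caffeine was present minus that when it was absent. Decay is the signal under actinomycin D without caffeine minus the caffeine signal, and loss with caffeine kept takes actinomycin D together with caffeine in its place. These differences share arrays and are not independent of each other. limma tested what the lines share, on 21453 probe sets, the lines serving as the replicates of a treatment and cell line as a block. SE below is the standard error of a limma estimate. All 8 luminal epithelial markers that could be read (KLK3, KLK2, TMPRSS2, FOLH1, HOXB13, EPCAM, KRT8 and KRT18) were at or above the floor on every array of both lines, and all 3 leukocyte and all 3 endothelial markers were below it on every array. Of 4 stromal markers COL1A1 and VIM were above it on every array, VIM at 6.58 to 9.64 in LNCaP and 11.12 to 11.32 in 22Rv1, DCN at 5.56 to 7.06 in 22Rv1 and 2.27 to 4.19 in LNCaP, and COL1A2 was below it throughout. Their part in the results was not tested. The 3 probe sets of 18S ribosomal RNA set apart the LNCaP array that had actinomycin D together with caffeine, with a mean of 11.71 there against 4.09 to 7.08 on the other 7 arrays.

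MYC was the member that moved most. It had almost the same signal with and without caffeine, and after 4 hours of actinomycin D it was among the most reduced transcripts of the whole array in both lines. MYC, measured by probe set 202431_s_at, had a log2 signal of 12.66 in untreated LNCaP, 12.62 after caffeine, 9.31 after actinomycin D with caffeine and 7.92 after actinomycin D alone. In 22Rv1 the same probe set read 11.83 untreated, 11.81 after caffeine, 5.48 after actinomycin D with caffeine and 5.61 after actinomycin D alone. All 4 actinomycin D arrays lay below all 4 others. Decay was -4.70 in LNCaP, a 26.0-fold lower signal and the seventh lowest value (rank 7) of 22157 detected probe sets, and -6.20 in 22Rv1, 73.5-fold lower and rank 2 of 21946. Over both lines MYC fell by 5.45 (SE 0.75, adjusted p = 0.0333 from limma), the lowest of all 21453 estimates, followed by TRIB1, a pseudokinase gene, at -5.45 and the phosphatase gene DUSP1 at -4.63. MYC was the 1 member probe set of 14 that passed this test, and 501 of the 21453 probe sets (2.34%) did, 102 of them higher and 399 lower. The call rested on all 8 arrays: with any single array left out the adjusted p from limma was between 0.0507 and 0.198, with estimates from -6.21 to -4.69. It was also lost without cell line as a block (adjusted p = 0.524 from limma) and without the filter on low signals (adjusted p = 0.276 from limma).

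**Figure D1:**
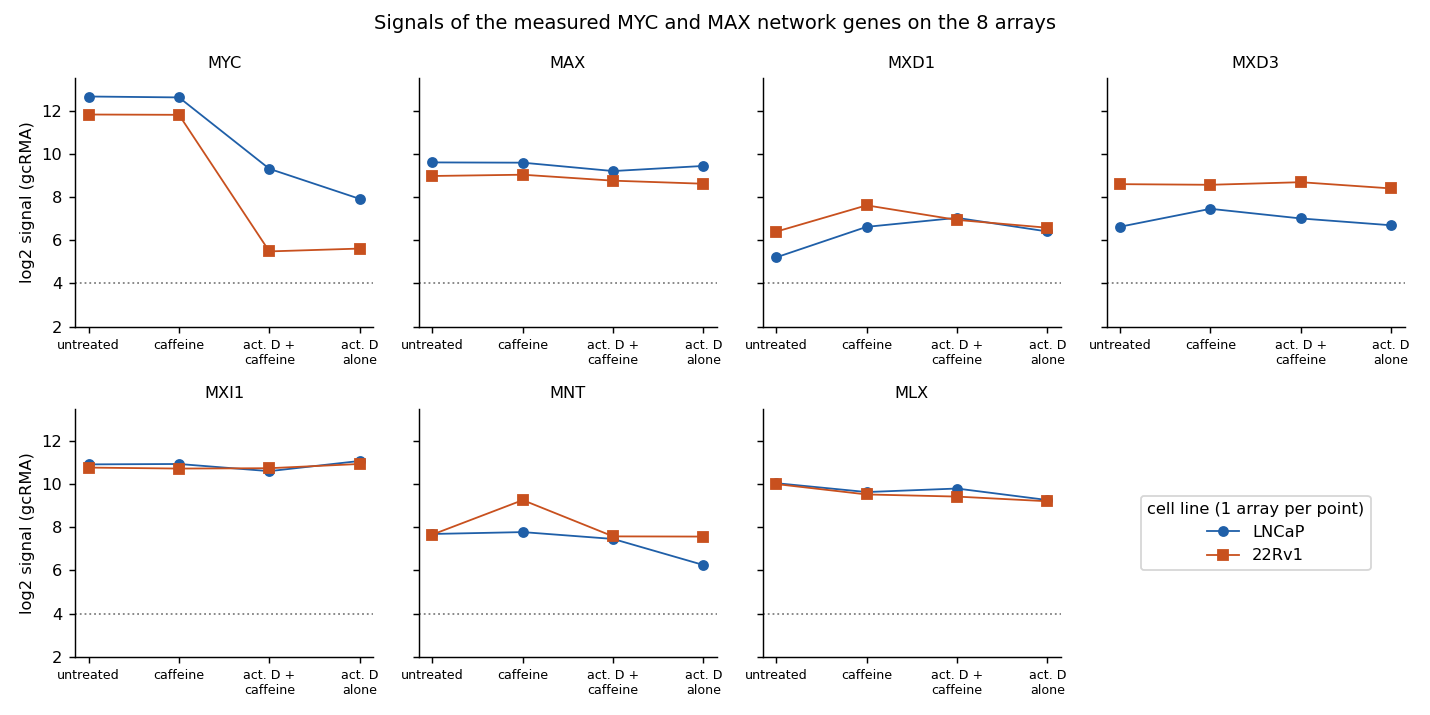
Log2 gcRMA signal (vertical axis) of the probe set with the highest mean for each of the 7 network genes with a mean of 4 or more, by treatment (horizontal axis), with LNCaP as circles and 22Rv1 as squares and 1 array per point. The dotted line marks the floor of 4, the lines only join arrays of a cell line, and MYC goes from 12.62 and 11.81 after caffeine to 7.92 and 5.61 after actinomycin D alone while MXI1 stays between 10.60 and 11.07.

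With caffeine kept in the medium during actinomycin D, the MYC signal was still far below that with caffeine alone. Loss with caffeine kept was -3.31 in LNCaP (9.91-fold lower, rank 23 from the lowest) and -6.33 in 22Rv1 (80.5-fold lower, the lowest of 21802 detected probe sets). The estimate over both lines was -4.82 (SE 0.75, adjusted p = 0.131 from limma), second in rank to TRIB1 at -4.96. By limma, 0 of the 21453 probe sets passed this test (0%), with 2628 at an unadjusted p under 0.05, 3 of them among the 14 of the network. With a single probe set per gene, 11.8% of all 10842 tested genes were under 0.05. The degradation difference of MYC was 1.39 in LNCaP, a 2.63-fold higher signal with caffeine and place 467 from the highest of 21925, and -0.13 in 22Rv1. The LNCaP value uses the array with the high 18S signal, on which the 18S probe sets were higher by a mean of 5.45 than with actinomycin D alone, and the part of this in the MYC value was not tested. Over both lines the MYC degradation estimate was 0.63 (SE 0.75, adjusted p = 0.904 from limma), and -0.63 without that array. The degradation test called 0 of 21453 probe sets (0%) in limma, with 1712 at an unadjusted p under 0.05 and 0 of them in the network. The share under 0.05 was 6.75% of all 10842 tested genes. Accumulation of MYC was -0.04 in LNCaP and -0.01 in 22Rv1, with a common estimate of -0.03 (95% interval -1.86 to 1.80, adjusted p = 0.994 from limma). That interval spans several-fold changes in either direction.

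Quantile normalization gives all arrays the same distribution, so a loss shared by all mRNAs does not appear in these values. The 24 poly-A control probe sets, for bacterial transcripts, were all higher with actinomycin D alone than with caffeine, with mean differences of 1.53 for LNCaP (SD 0.49) and 1.18 for 22Rv1 (SD 0.34). In the same comparison the 18 hybridization control probe sets had mean differences of 0.62 for LNCaP (SD 0.26) and 0.08 for 22Rv1 (SD 0.23). How far the poly-A differences share in this was not tested. With the arrays scaled to equal poly-A signal, the median estimate of all tested probe sets moved by -1.35 for decay, -0.95 for loss with caffeine kept, 0.24 for accumulation, 0.40 for degradation and 0.45 for LNCaP minus 22Rv1. All differences given here are relative to the other transcripts of the array. On the poly-A scale 17490 probe sets fell and 59 rose in the decay test, 11 of the 14 network probe sets among those that fell, and MYC fell by 6.80.

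The other MYC family genes lay below the floor in all values but 1. MYCN, the neuroblastoma paralog, has 10 probe sets, and their 80 values lay between 2.27 and 3.45, all below the floor. MYCL, the paralog first found in lung cancer, has 2 probe sets with values from 2.57 to 4.21. The single MYCL value above the floor was 214058_at in LNCaP after caffeine, at 4.21, beside 3.26 untreated, 3.82 with actinomycin D and caffeine and 2.97 with actinomycin D alone. In 22Rv1 this probe set read between 2.57 and 3.24. Neither gene entered the test.

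With caffeine, signals past the single-line cut-off were found for the repressors MXD1, in both lines, and MNT, in 22Rv1 by 1 of its probe sets, and no common difference passed the test. By this cut-off, a difference of 1 on the log2 scale, 2 of 15 detected member probe sets accumulated in LNCaP, both of MXD1, where 6.36% of all detected probe sets did, and 0 were lower by 1, where 5.24% were. In 22Rv1 3 of 14 accumulated, of MXD1 and MNT, where 9.23% of all did, and 0 were lower, where 7.79% were. The remaining members differed by -0.41 to 0.95 in LNCaP and -0.65 to 0.06 in 22Rv1. Over both lines limma called 0 of the 14 for accumulation and 10 of 21453 probe sets in all (0.0466%). At an unadjusted p under 0.05 there were 3794 probe sets, 2 of them in the network, both of MXD1.

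MXD1, a repressor that rises as cells differentiate, was higher after caffeine in both lines. Probe set 226275_at read 5.21 in untreated LNCaP, 6.62 after caffeine, 7.04 after actinomycin D with caffeine and 6.41 after actinomycin D alone. In 22Rv1 it read 6.40, 7.62, 6.94 and 6.58 in the same order. The untreated array was the lowest of each line. Accumulation was 1.41 in LNCaP (2.66-fold) and 1.22 in 22Rv1 (2.33-fold), with an estimate over both lines of 1.32 (SE 0.36, adjusted p = 0.163 from limma). A further MXD1 probe set, 228846_at, gave 3.72 and 4.95 in LNCaP without and with caffeine and 2.87 and 5.11 in 22Rv1. It reached the floor on 4 of the 8 arrays, all with caffeine in the first step, and so passed the mean filter at 4.10. Its test therefore adds no support and is not given here. Its untreated values are below the floor, and with signals under 4 set to 4 its accumulation was 0.95 in LNCaP and 1.11 in 22Rv1. The third probe set, 206877_at, was at 2.27 on all 8 arrays. Decay of 226275_at was -0.21 in LNCaP and -1.04 in 22Rv1, and its degradation difference was 0.63 in LNCaP and 0.36 in 22Rv1.

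MNT, the most widely expressed antagonist of MYC, differed with caffeine in 22Rv1. Probe set 204206_at read 7.66 in untreated 22Rv1, 9.26 after caffeine, 7.58 after actinomycin D with caffeine and 7.57 after actinomycin D alone, so that the caffeine array stood alone. In LNCaP it read 7.69 untreated, 7.78 after caffeine, 7.46 after actinomycin D with caffeine and 6.25 after actinomycin D alone, with the last array lowest. Accumulation was therefore 0.09 in LNCaP and 1.60 in 22Rv1 (3.02-fold), and the estimate over both lines was 0.84 (SE 0.44, adjusted p = 0.383 from limma). Decay was similar in size in the lines, -1.53 in LNCaP (2.88-fold lower) and -1.69 in 22Rv1 (3.23-fold lower), with an estimate of -1.61 (SE 0.44, adjusted p = 0.118 from limma). Degradation was 1.21 in LNCaP, a value that again uses the array with the high 18S signal, and 0.01 in 22Rv1. The other MNT probe set, 236749_at, stayed between 4.33 and 4.61 on all 8 arrays, near the floor, and showed none of these differences.

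MXD3, a repressor found in dividing cells, and MXI1 had steadier signals. MXD3 read 6.63 in untreated LNCaP, 7.46 after caffeine, 7.01 after actinomycin D with caffeine and 6.69 after actinomycin D alone, and between 8.40 and 8.69 on the 4 arrays of 22Rv1. Its accumulation was 0.83 in LNCaP and -0.03 in 22Rv1. MXI1, a target of hypoxia signalling, read 10.92, 10.93, 10.60 and 11.07 in LNCaP in the order untreated, caffeine, actinomycin D with caffeine and actinomycin D alone, and 10.77, 10.72, 10.74 and 10.94 in 22Rv1. Its decay was 0.14 in LNCaP and 0.21 in 22Rv1, both above 0 in the deposited values and below 0 once the poly-A shift is applied. The common estimate was 0.18 (95% interval -0.31 to 0.67, adjusted p = 0.646 from limma).

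The decay counts of the network were split between the lines. In LNCaP 3 of 16 detected member probe sets were lower by at least 1, those of MYC, MNT and MYCL, where 11% of all detected probe sets were, and 3 were higher, all of MAX, where 10.1% of all were. In 22Rv1 4 of 14 were lower, of MYC, MNT and MXD1, where 9.39% of all were, and 0 were higher, where 6.06% were. With caffeine kept, 1 of 15 was lower in LNCaP (MYC, 9.33% of all) and 2 were higher (MAX and MLX, 8.03% of all), and in 22Rv1 3 of 14 were lower (MYC, MNT and MXD1, 6.33% of all) and 0 higher (3.94% of all). By degradation, 2 of 15 were higher in LNCaP (MYC and MNT, 5.29% of all) and 2 lower (MAX, 6.78% of all). In 22Rv1 0 of 13 were higher by degradation (3.74% of all) and 0 lower (2% of all). The degradation values of the 22Rv1 members lay between -0.67 and 0.36. Some counted probe sets reached the floor on only 1 of the 2 arrays compared: MYCL 214058_at, MAX 208403_x_at and, in 22Rv1, MXD1 228846_at. With signals under 4 set to 4, LNCaP decay had 3 higher and 2 lower, MYCL no longer among them. The other counts of this paragraph did not change.

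**Figure D2:**
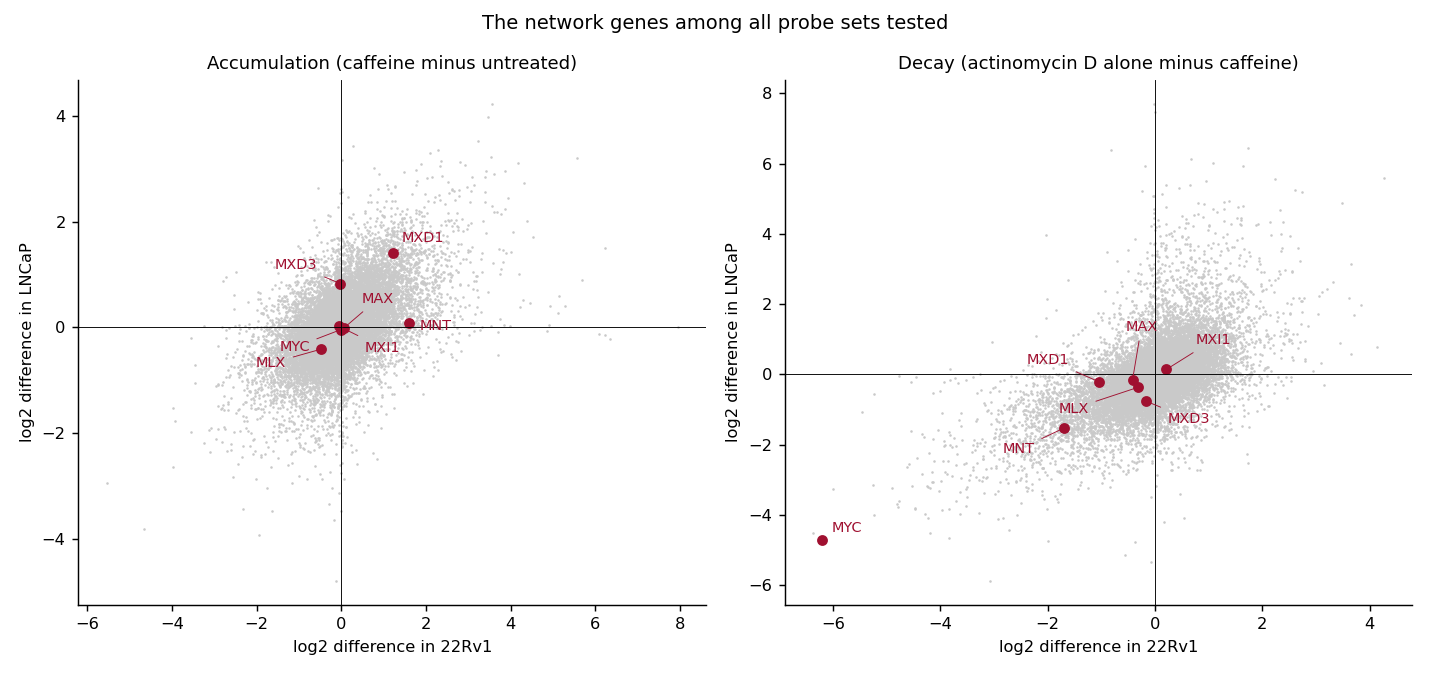
Log2 difference in LNCaP (vertical axis) against that in 22Rv1 (horizontal axis) for accumulation (left) and decay (right), with each of the 21453 tested probe sets in grey and the representative probe sets of the 7 tested network genes in red. MYC lies near 0 in accumulation and at -6.20 and -4.70 in decay, at the edge of the cloud, and MXD1 lies to the upper right in accumulation at 1.22 and 1.41.

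MAX, the shared partner, was level by its brightest probe set and not by others. Probe set 209332_s_at read 9.61, 9.60, 9.21 and 9.44 in LNCaP in the order untreated, caffeine, actinomycin D with caffeine and actinomycin D alone, and 8.98, 9.04, 8.76 and 8.62 in 22Rv1. Its decay was -0.15 in LNCaP and -0.42 in 22Rv1, with an estimate of -0.28 (SE 0.20, adjusted p = 0.455 from limma). Probe set 209331_s_at read 6.82, 6.45, 7.95 and 8.61 in LNCaP and 6.70, 6.57, 6.03 and 6.70 in 22Rv1. Probe set 210734_x_at read 4.94, 4.99, 5.60 and 7.41 in LNCaP and 4.85 to 5.08 in 22Rv1. Both were highest in LNCaP after actinomycin D alone, by 2.15 and 2.43 over caffeine (4.44-fold and 5.39-fold), and differed by 0.13 and 0.11 in 22Rv1. On the poly-A scale the LNCaP differences were 0.63 and 0.90. Another, 208403_x_at, was at 5.08 on that array and between 2.40 and 2.59 on the other 7, and 214108_at stayed below the floor throughout. No common decay of MAX passed the test by any probe set: the estimates of 209331_s_at and 210734_x_at were 1.14 and 1.27 (adjusted p = 0.322 and 0.283 from limma), both below 0 after the poly-A shift of -1.35. The probe sets therefore disagree on MAX in LNCaP. Which transcripts each probe set reads was not tested, and the x_at suffix marks probes that can bind other transcripts.

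**Figure D3:**
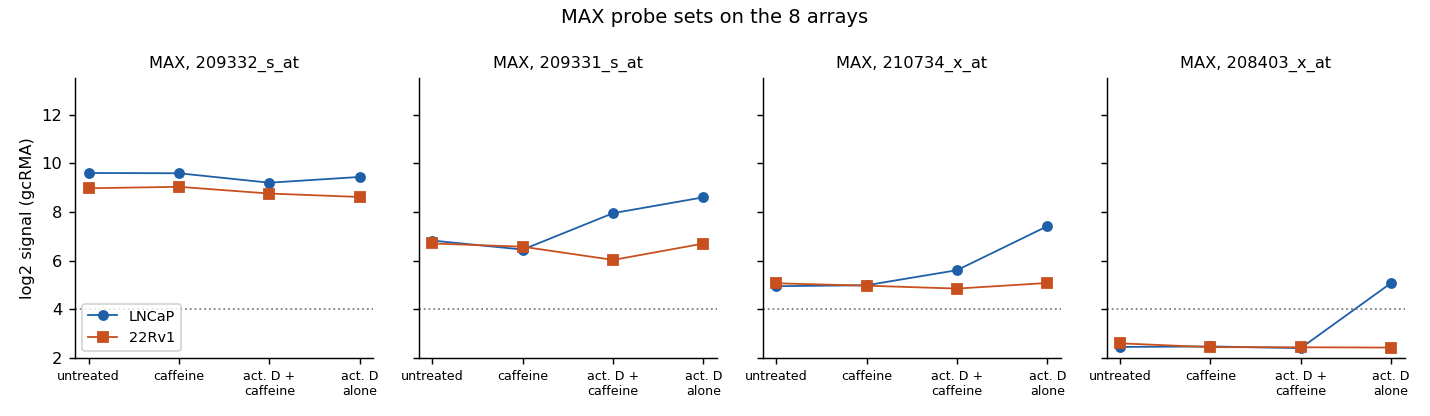
Log2 gcRMA signal (vertical axis) of 4 MAX probe sets by treatment (horizontal axis), with LNCaP as circles, 22Rv1 as squares, 1 array per point and the floor of 4 dotted. The brightest probe set stays between 8.62 and 9.61, whereas the other 3 are highest in LNCaP after actinomycin D alone, at 8.61, 7.41 and 5.08.

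MLX, which links the network to the glucose-sensing factors, had similar signals on all arrays. Its brightest probe set, 213708_s_at, read 10.04, 9.63, 9.80 and 9.26 in LNCaP and 10.00, 9.52, 9.42 and 9.21 in 22Rv1, in the order untreated, caffeine, actinomycin D with caffeine and actinomycin D alone. In both lines the untreated array was highest and the array with actinomycin D alone lowest. Accumulation was -0.41 in LNCaP and -0.48 in 22Rv1, with an estimate of -0.45 (SE 0.20, adjusted p = 0.317 from limma). The probe sets 217909_s_at, 217910_x_at and 210752_s_at also had accumulation below 0 in both lines, from -0.65 to -0.19, except that 217909_s_at in LNCaP, the smallest, was no longer below 0 on the poly-A scale. In decay 210752_s_at differed from the others, at 0.80 in LNCaP and 0.75 in 22Rv1, values that also turn below 0 on the poly-A scale, and its loss with caffeine kept in LNCaP was 1.09, or -0.0445 on the poly-A scale, a value that uses the array with the high 18S signal. The remaining MLX probe sets, 231401_s_at and 1570347_at, were below the floor.

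The lines differed over the treatments in 3 of the genes, for MAX by 1 of its 3 tested probe sets. LNCaP had higher signals of MYC and of MAX 209332_s_at and a lower signal of MXD3 than 22Rv1. MYC was higher in LNCaP by 0.83 untreated, and by 1.94 over the 4 treatments (SE 0.53, adjusted p = 0.0234 from limma). This fit assumes the same line difference under each treatment, which for MYC ranged from 0.81 with caffeine alone to 3.83 with actinomycin D and caffeine, and the call was lost without either array for actinomycin D alone (1.82, adjusted p = 0.0874 from limma in both cases). It was also lost without cell line as a block (adjusted p = 0.419 from limma) and without the filter on low signals (adjusted p = 0.201 from limma). MAX 209332_s_at was higher in LNCaP by 0.61 (SE 0.14, adjusted p = 0.0131 from limma), and by 0.54 without either of these arrays (adjusted p = 0.0558 from limma), while 209331_s_at and 210734_x_at gave 0.96 and 0.75 (adjusted p = 0.0985 and 0.182 from limma). Between untreated arrays these 2 differed by 0.12 and -0.12 and between caffeine arrays by -0.12 and 0.02, and the arrays with actinomycin D alone by 1.90 and 2.34. MXD3 was lower, with an estimate of -1.62 (SE 0.18, adjusted p = 0.000929 from limma), and the call held with each array left out. On all 4 treatments the sign was the same for MYC, MXD3 and MAX 209332_s_at. Nothing says that the plates of a line came from separate cultures, so these p-values cannot tell a line from its culture. The share of tested probe sets called between the lines was 53.6% (5870 higher and 5633 lower in LNCaP, and 9170 and 3247 on the poly-A scale), and the 3 of 14 in the network lie below that share. Between the untreated arrays 2 of 13 detected member probe sets were lower in LNCaP by at least 1, MXD3 at -1.97 and MXD1 at -1.19, where 19.1% of all were, and 0 were higher, where 20.3% were. For MXD1 the direction between the lines depended on the probe set, with -0.57 for 226275_at (adjusted p = 0.110 from limma) and 0.73 for 228846_at. The latter was below the floor on every 22Rv1 array except that with caffeine alone. For MNT the estimate was -0.72 (adjusted p = 0.0943 from limma). The difference between the lines in the size of a treatment response was not tested, since the fit with such a term leaves no residual degrees of freedom.

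The 5 genes whose signals followed MYC most closely over the 8 arrays were MED26, a subunit of the Mediator complex (Pearson r 0.995), ZCCHC3 (0.990), MTRFR, a mitochondrial translation release factor (0.983), C1orf116 (0.982) and CHAMP1, a chromosome alignment protein (0.977), among 10841 genes. These correlations are descriptions over 8 arrays that share 2 lines and 4 treatments. MED26 read 7.44, 8.04, 5.04 and 4.27 in LNCaP and 6.74, 7.13, 2.30 and 2.35 in 22Rv1 in the order used above. Both of its actinomycin D values in 22Rv1 were below the floor, so its likeness to MYC depends in part on background signal. Of the network, MLX (0.74) and MAX (0.67) were the most alike to MYC, then MNT (0.41), MXI1 (-0.06), MXD1 (-0.24) and MXD3 (-0.27). This order rests on the 4 actinomycin D arrays: over the other 4 arrays, too few for a correlation to be given, MAX and MXI1 came first and MLX after them.

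Partners, regulators and targets of the network were read from 8 lists of 90 genes, of which 79 had a probe set of their own and 74 were tested. In accumulation 0 of the 74 passed the limma test in either direction (13 at an unadjusted p under 0.05, or 17.6%, beside 17.8% of all genes), where 3 of all 10842 genes rose and 0 fell. In decay 2 of the 74 passed, both lower, where 17 of all genes rose (0.157%) and 261 fell (2.41%). Both were among the 24 tested targets that MYC activates. CDC25A, the phosphatase that starts cyclin-dependent kinases, read 8.02, 7.09, 6.27 and 5.34 in LNCaP in the order untreated, caffeine, actinomycin D with caffeine and actinomycin D alone, and in 22Rv1 from 7.24 untreated to 4.97 after actinomycin D alone. It fell in decay by 1.89 (SE 0.24, adjusted p = 0.0309 from limma), or by 0.70 with its probe sets averaged (adjusted p = 0.0764 from limma). WDR43, a ribosome production factor, fell in decay by 1.20 (SE 0.20, adjusted p = 0.0488 from limma), with -1.25 in LNCaP and -1.15 in 22Rv1. With an array left out the adjusted p from limma was 0.0451 to 0.193 for CDC25A, under 0.05 only without either untreated array, and 0.0631 to 0.262 for WDR43. Neither call was kept without cell line as a block or without the filter on low signals, where the adjusted p from limma was 0.166 to 0.466. The next, TERT, the telomerase reverse transcriptase, had an estimate of -0.69 (adjusted p = 0.306 from limma). The median decay of the activated targets was -0.09 in LNCaP and 0.03 in 22Rv1, beside -0.09 and 0.03 for all detected genes. In accumulation the list had medians of -0.25 (LNCaP) and -0.27 (22Rv1), beside -0.02 and -0.02 for all genes, with CDK4 at -0.73 and -0.88, the spermidine synthase gene SRM at -0.32 and -1.20 and the cap-binding factor gene EIF4E at -0.35 and -1.05.

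Among genes that MYC represses, CDKN1A and CDKN1B, which encode inhibitors of cyclin-dependent kinases, stood opposite each other. CDKN1A was lower after caffeine by -1.68 in LNCaP and -1.02 in 22Rv1 (adjusted p = 0.0932 from limma), and CDKN1B differed by 1.41 and 1.16 (adjusted p = 0.163 from limma). In decay CDKN1B was at -2.38 and -1.75, with an adjusted p of 0.0502 from limma, and CDKN1A at 0.64 and 0.30. CEBPA, a differentiation factor, had an accumulation of -0.59 and -0.97 and a decay of -0.86 and -0.19. Of the 8 listed, 5 were tested and 0 passed in either comparison. GAS1, not tested because its mean of 3.99 was under 4, had the lowest decay of the list, -4.75 in LNCaP and -2.02 in 22Rv1. It read 7.04 after caffeine and 2.28 after actinomycin D alone in LNCaP, and 4.53 and 2.51 in 22Rv1. Its signals after actinomycin D were below the floor.

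The 4 targets of MLXIP and MLX had the largest list medians, 0.99 and 0.60 for accumulation and -0.94 and -2.20 for decay in LNCaP and 22Rv1, with 0 of 4 passing either test. ARRDC4, an arrestin-like inhibitor of glucose uptake, read 6.58 and 8.33 without and with caffeine in LNCaP and 8.58 and 10.99 in 22Rv1, with an estimate of 2.08 (SE 0.33, adjusted p = 0.0749 from limma). TXNIP, the thioredoxin-interacting protein, read 11.54, 12.92, 12.52 and 10.47 in LNCaP and 13.41, 13.81, 12.30 and 11.05 in 22Rv1, in the order used above. Its decay was -2.45 and -2.75 (adjusted p = 0.0543 from limma). KLF10 had a decay of -1.48 and -2.64 (adjusted p = 0.0652 from limma). HK2, a hexokinase gene, differed the other way with caffeine, at -0.77 and -1.50 (adjusted p = 0.188 from limma).

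**Figure D4:**
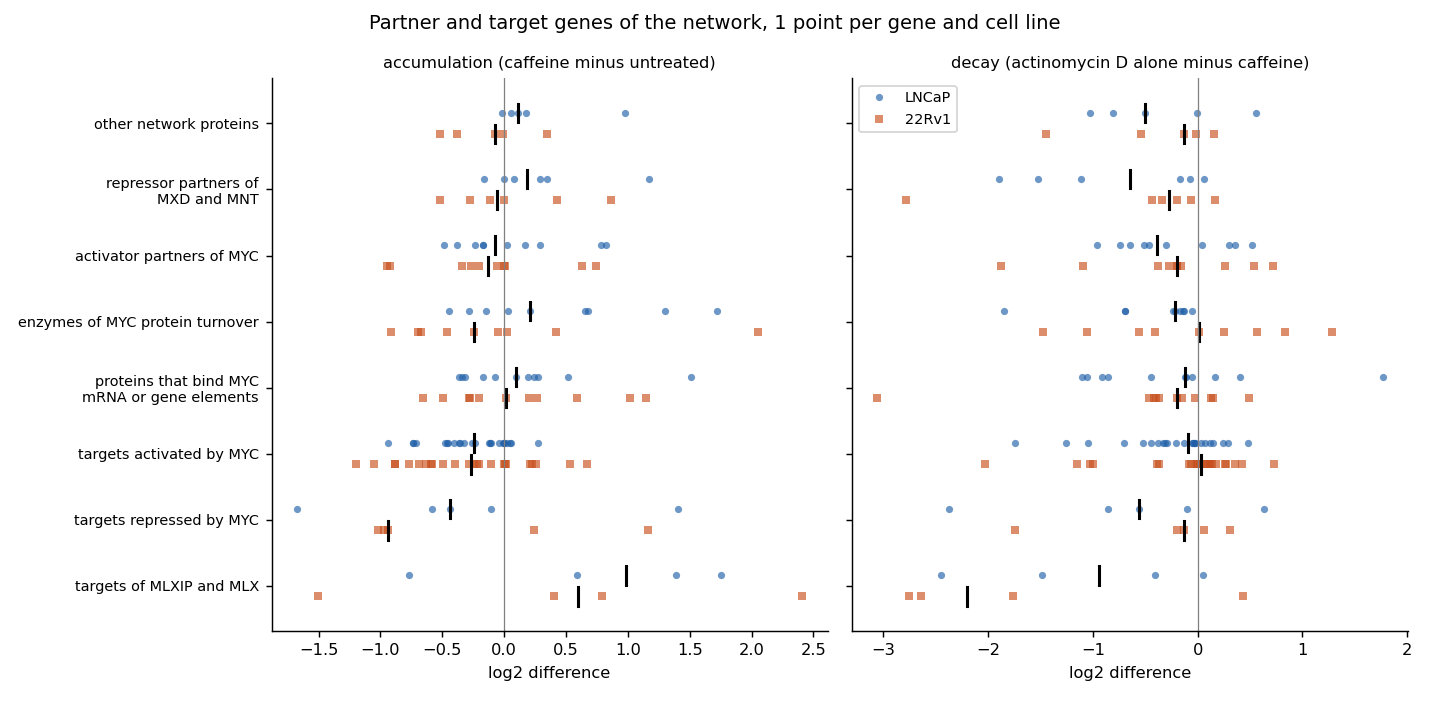
Log2 difference (horizontal axis) of the 74 tested partner, regulator and target genes in 8 lists (vertical axis), for accumulation (left) and decay (right), with LNCaP as circles and 22Rv1 as squares, 1 point per gene and line, and a black bar at each median of the tested genes. The targets of MLXIP and MLX have the accumulation medians farthest to the right (0.99 and 0.60) and the decay medians farthest to the left (-0.94 and -2.20).

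Among the corepressors that MXD proteins and MNT recruit, SIN3A, the scaffold that binds them, had the largest differences. It read 6.63, 7.80, 7.07 and 5.90 in LNCaP and 7.74, 8.60, 6.33 and 5.82 in 22Rv1, with an accumulation of 1.17 and 0.86 (adjusted p = 0.326 from limma) and a decay of -1.89 and -2.78 (adjusted p = 0.0652 from limma). The other subunits were nearer to 0 in accumulation, SAP18 at 0.29 and 0.43 and the deacetylase HDAC1 at -0.16 and -0.27. In decay SAP30 was at -1.52 and -0.34 and SIN3B at -1.12 and -0.44. Of the further network proteins, MGA, a MAX partner that represses, had an accumulation of 0.98 and 0.35 and a decay of -1.03 and -1.45 (adjusted p = 0.136 from limma for decay). MYCBP2, a ubiquitin ligase that binds MYC, and MLXIP had smaller values, at 0.06 and -0.52 and at 0.18 and -0.38 in accumulation, and at -0.50 and -0.13 and at -0.81 and 0.16 in decay. None of the 6 tested corepressors and the 5 tested network proteins passed either test.

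Coactivators that MYC recruits and enzymes that set MYC protein stability gave 0 calls of 10 and 0 of 9 in either comparison. The acetyltransferase KAT5 had an accumulation of 0.82 and 0.75 and a decay of -0.74 and -1.09, and CCNT1, the cyclin of the elongation kinase, 0.79 and 0.63 and then -0.47 and -1.88. RUVBL1, an ATPase, had an accumulation of -0.17 and -0.95, and TRRAP, the scaffold, a decay of -0.96 and -0.38. USP36, a nucleolar deubiquitinase that stabilizes MYC, read 5.52 and 7.24 without and with caffeine in LNCaP and 7.23 and 9.28 in 22Rv1, an estimate of 1.88 (SE 0.32, adjusted p = 0.0760 from limma). Its decay was -0.69 and -1.48. AURKA, the mitotic kinase that holds MYCN protein from breakdown, had an accumulation of 1.30 and -0.05 and a decay of -1.85 and -1.05 (adjusted p = 0.0957 from limma for decay). SKP2, a ubiquitin ligase subunit, was at -0.44 and -0.70 in accumulation, and GSK3B, which marks MYC for breakdown, at -0.13 and -0.56 in decay.

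Proteins that bind MYC mRNA or control elements of its gene gave 0 calls of 11 in either comparison. FUBP1, which binds the far upstream element of MYC, had an accumulation of 1.51 in LNCaP and 1.02 in 22Rv1 (adjusted p = 0.136 from limma) and a decay of -0.92 and -0.47. ZFP36, which destabilizes mRNAs with AU-rich elements, had an accumulation of 0.52 and 1.15 and a decay of -1.10 and -3.06 (adjusted p = 0.100 from limma for decay). KHSRP, another decay factor of that kind, was at -0.32 and -0.66 in accumulation. IGF2BP3, which protects bound mRNAs, had a decay of -1.06 and -0.42. Between the lines IGF2BP2, its paralog, differed most, with an estimate of -4.19 in LNCaP minus 22Rv1. It read 6.48 to 7.51 in 22Rv1 and 2.27 to 4.04 in LNCaP, there below the floor except after actinomycin D alone. It thus passed the mean filter through 22Rv1, so its line test is not given, and the size of its line difference depends on background signal in LNCaP. In the line contrast 31 of the 74 list genes were called, 14 higher and 17 lower in LNCaP, where 28.5% and 26.8% of all genes were. Those lower include IGF2BP2 and THBS1, which both passed the mean filter through 22Rv1. THBS1 read 2.27 to 2.48 in LNCaP and 5.38 to 6.46 in 22Rv1.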

How the data were processed

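For the 8 Affymetrix arrays the authors deposited log2 values made with gcRMA in R, which corrects background, equalizes the quantiles of the arrays and combines the probes of a set. RMA and GCRMA stand without a version in the submitters' processing notes. Array values give no read depth, and 1 array per line and treatment limits the precision. Groups were taken from the sample labels. The annotation assigns 1 symbol to 41097 of 54675 probe sets, several to 1801 and none to 11777. RefSeq tables on GRCh38.p14 held 41043 of the 41097 and gave the promoter sequences. The brightest probe set on average stands for a gene, and all other member probe sets are given too. Differences within a line are between single arrays and have no test. A probe set counts as detected in such a difference if 1 of its arrays reached a log2 signal of 4, and the cut-off was 1. limma 3.58.1 in R 4.3.3 fitted treatment and cell line on the 8 arrays for probe sets whose mean was 4 or more, with 3 residual degrees of freedom, a prior of 2.93 and Benjamini-Hochberg adjustment at 0.05 over all 21453. The lines stand in for replicates, and nothing says that plates of a line came from separate cultures, so p-values measure the spread between these arrays.

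The members and the 8 lists were chosen with earlier results of these data known. From each list the text names, for accumulation and decay, the 3 tested genes with the largest absolute mean of the differences in the lines, and for likeness the 5 genes with the highest Pearson r to MYC. TRIB1 and DUSP1 were named as neighbours of MYC in rank, and IGF2BP2 as the largest line difference of its list. GAS1, not tested, was named for the lowest decay of its list. Listed genes that were not matched to a probe set by symbol alone were not used here. The alternatives were a fit with no cell line block, a variance trend, robust variances, a mean filter of 6 or none, signals under 4 set to 4, median centring, scaling on the poly-A control probe sets, averaging over a gene's probe sets, each other probe set, only the arrays compared, and each array left out in turn. Tables were made in python 3.11.15 (pandas 2.3.3, numpy 2.4.6) and plots in matplotlib 3.10.9.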

Additional observations from a re-analysis of the deposited data

Results flagged for a closer look

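The degradation difference of MYC had opposite signs in the lines, 1.39 in LNCaP and -0.13 in 22Rv1, which are 1.53 apart on the log2 scale. MAX 209331_s_at had a loss with caffeine kept of 1.50 in LNCaP and -0.54 in 22Rv1, which are 2.04 apart. In both cases the value reached 1 in LNCaP and was below 0 in 22Rv1. The 22Rv1 value of MYC was near the median of all detected probe sets, -0.04 (SD 0.51). The brightest MAX probe set, 209332_s_at, had a loss with caffeine kept of -0.39 in LNCaP and -0.28 in 22Rv1. On the poly-A scale 0 of 15 detected member probe sets were higher by 1 in LNCaP for this loss. With 1 array per line and treatment no test of this contrast between the lines could be made. Both flagged LNCaP values use the array for actinomycin D with caffeine, whose 18S probe sets had a mean of 11.71. The part of this in the values was not tested.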

How the results depend on the processing

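The labels number no replicates, so the pairing used was that of treatments within a cell line, which is the block of the fits reported.

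The decay of MYC kept its direction in every alternative run. Its call was lost with no block (-5.45, adjusted p = 0.524 from limma), with no filter (adjusted p = 0.276 from limma) and with only the 4 arrays compared (adjusted p = 0.121 from limma), and with each array left out, where estimates ran from -6.21 to -4.69. Its loss with caffeine kept passed on the poly-A scale (-5.77, adjusted p = 0.00769 from limma). Its line difference of 1.94 lost the call with no block (adjusted p = 0.419 from limma) and no filter (adjusted p = 0.201 from limma), and was 1.82 without LNCaP or 22Rv1 with actinomycin D alone, in a range of 1.32 to 2.32 with an array left out. Its accumulation turned to 0.21 on the poly-A scale, 0.73 without LNCaP with caffeine and 0.71 without untreated 22Rv1, in a range of -0.79 to 0.73. Its degradation turned to -0.63 without LNCaP with actinomycin D and caffeine, in a range of -0.63 to 1.89. The cause was not tested.

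For accumulation the count of all called probe sets, 10, became 136 with a variance trend, 0 with no block, 207 with a mean of 6, 1 with no filter, 3 with signals under 4 set to 4, 178 on the poly-A scale, 69 with gene means, 6 with robust variances, 0 with only the arrays compared and 0 to 0 with an array left out. For degradation, 0 became 7 with a variance trend, 5 with a mean of 6, 1 with no filter, 2 with the floor, 38 on the poly-A scale and 3 with gene means. For decay, 501 became 0 with no block, 6 with no filter, 17549 on the poly-A scale, 0 with only the arrays compared and 0 to 181 with an array left out. For loss with caffeine kept, 0 became 1 with no filter and 11209 on the poly-A scale, and for the lines 11503 became 7401 with no filter and 5391 with gene means.

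Of the 14 network probe sets, the 1 called for decay became 0 with no block, no filter, only the arrays compared or any array left out, and 11 on the poly-A scale. On that scale 10 were called for loss with caffeine kept and 9, from 3, between the lines. Most of all tested probe sets were also called there, for decay, for loss with caffeine kept and between the lines. In the network 1 was called between the lines without either array for actinomycin D alone. Of the single-line counts, accumulation in LNCaP went from 2 to 1 with the floor and 4 on the poly-A scale. Of all detected probe sets 11.6%, 9.71% and 13.3% passed the cut-off in these settings. On the poly-A scale decay went from 6 to 13 in LNCaP and 4 to 11 in 22Rv1. Loss with caffeine kept went from 3 to 8 and 3 to 6. In the same order, 81.7%, 57.5%, 61.8% and 27% of all detected probe sets passed the cut-off on that scale.

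The MNT probe set 236749_at turned the sign of accumulation (-0.0342), decay (0.13) and loss with caffeine kept (0.0433) over both lines, and within lines of degradation (-0.0573) and decay (0.0704) in LNCaP and of accumulation (-0.00336), decay (0.18) and loss (0.0735) in 22Rv1. MXD1 between the lines was 0.0546 with gene means and 0.73 by 228846_at. MLX 210752_s_at in LNCaP was -0.0445 for loss with caffeine kept on the poly-A scale.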

Other observations

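The degradation difference was largest among the listed genes for targets of MLXIP and MLX, with list medians of 1.11 in LNCaP and 0.92 in 22Rv1, beside 0.10 and -0.02 for all detected genes. TXNIP was at 2.05 and 1.24 (adjusted p = 0.509 from limma) and KLF10 at 1.43 and 1.09 (adjusted p = 0.546 from limma), whereas ARRDC4 was at 0.12 and 0.75 and HK2 at 0.78 and -0.23. The LNCaP values use the array with the high 18S signal, and its part in them was not tested. Among the activated MYC targets CDC25A was at 0.93 and 1.16 (adjusted p = 0.395 from limma), POLR3D, a subunit gene of RNA polymerase III, at 0.78 and 0.93, and WDR43 at 0.85 and 0.71. SIN3A was at 1.16 and 0.50 and SIN3B at 1.21 and 0.44. By limma, 0 of the 74 tested list genes passed for degradation, with 8 at an unadjusted p under 0.05 (10.8%, beside 6.75% of all 10842 genes).

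With caffeine kept, CDC25A had a loss of -0.82 in LNCaP and -0.87 in 22Rv1, the ubiquitin ligase subunit gene FBXW7 was at 0.46 and 1.18, and ZFP36 at -0.93 and -2.81 (adjusted p = 0.287, 0.348 and 0.279 from limma). By limma, 0 of the 74 passed here too, with 8 at an unadjusted p under 0.05 (10.8%, beside 11.8% of all genes).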
